A study of Homo sapiens with 9 samples.

Results

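The genes described here are the members of the MYC, MAX and MXD network: MYC, MYCN, MAX, MXD1, MXD3, MXD4, MXI1, MNT, MLX and MGA. They were taken by gene symbol from GENCODE release 44, and the transcript values of each gene were summed, which gave 10 of the 62700 genes in the tables. They were measured by RNA-seq in HAL-01, a leukemia line of B cell precursors (B-ALL) with the t(17;19) translocation, whose fusion transcription factor TCF3::HLF binds an enhancer of MEF2C. All cells, controls included, stably carried Cas9 and GFP. Guides sgRNA_96 and sgRNA_97, whose genotype is labelled as MEF2C enhancer KO, were directed at the HLF motif of that enhancer, and SCR1 was a scrambled guide. Each guide had 3 libraries, numbered 1, 3 and 4, all from day 13. HAL-01 is a single cell line, and nothing in the labels says that the libraries of a group came from separate cultures, so p-values measure only the spread between these samples, which may be technical.

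MYC is a basic helix-loop-helix leucine zipper (bHLHZ) factor that binds E-box DNA only after pairing with MAX, and it then recruits coactivators that raise transcription of genes for growth, ribosome production and the cell cycle. The MXD proteins, MXI1 and MNT pair with the same MAX, bind the same E-boxes and bring the SIN3 corepressor, so they oppose MYC. MLX pairs with MondoA (encoded by MLXIP) and also with some MXD proteins and MNT, and MGA joins MAX to a Polycomb repressor complex. In lymphoid leukemia MYC is known for driving proliferation, and several antagonists are known for rising as cells leave the cycle. The question put to the data was whether the antagonists moved while MYC itself held.

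The E-box is the piece of sequence that MYC and its antagonists bind when paired with MAX, so the member promoters that hold it are shown first. RefSeq promoter windows (GRCh38.p14, from 250 bases before to 50 after each start) were found for 9 of the 10 members, all but MYC, in 14 windows. The letters CACGTG, which read the same on both strands, occurred in 3 of these 14 windows, in MXD4, MNT and MLX, against 7.26% of all 35116 windows. The 3 windows of MXI1 held none. In these 30-base stretches, written 5′ to 3′ on the strand of the gene, capitals mark the E-box.
MXD4, chr4:2262330-2262359, minus strand: gggccgggccacCACGTGctgttgctaagc
MNT, chr17:2401236-2401265, minus strand: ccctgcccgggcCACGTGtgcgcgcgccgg
MLX, chr17:42567038-42567067, plus strand: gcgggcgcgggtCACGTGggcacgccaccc
The E-box began 238 bases before the start in MXD4, 193 bases in MNT and 50 bases in MLX. A match describes these letters only, and binding was not measured here.

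Of the whole data set, 15212462 to 29777361 estimated counts per library were deposited, the most in SCR1 replicate 1. Of 14436 genes that passed the filter on low counts, 2984 were called in MEF2C-enhancer KO at an adjusted p under 0.05 by the edgeR quasi-likelihood test, which is 20.7%. MEF2C itself stood at 552 ± 13.4 CPM (reads assigned to the gene per 1000000 of the TMM-scaled library; SD, n = 3) in SCR1 and 509 ± 22.1 CPM (n = 6) in KO, a log2 fold change of -0.12 that did not pass the edgeR test (adjusted p = 0.0620). It passed with DESeq2 (adjusted p = 0.0199), the tool of the study, with limma-voom (adjusted p = 0.0469) and without sgRNA_97 replicate 1 (adjusted p = 0.0143), and over 18 settings the value ran from -0.17 to -0.11. All 10 B-ALL markers passed the filter, and their summed level was 3953 to 4034 CPM in SCR1 and 4241 to 4481 CPM in KO, with no overlap. That rise came with the precursor enzyme DNTT, from 2072 ± 51.2 to 2473 ± 104 CPM (0.26, adjusted p = 0.000328), and not with the whole list. The median of the 10 log2 fold changes was 0.04. PAX5 was at -0.02 (adjusted p = 0.696) and HLF at -0.12 (adjusted p = 0.0657), or -0.15 with sgRNA_97 (adjusted p = 0.0461). CD34, a stem cell marker under 1 CPM in every library, read 0.0618 ± 0.0306 CPM in SCR1 and 0.572 ± 0.149 CPM in KO. It passed the filter only through the KO libraries, so its p-value is not given. The erythroid markers HBB, HBA1, HBA2 and ALAS2 had no count in any library, nor had the T cell markers CD3D, CD3E and CD3G. The summed level of 6 T cell markers stayed at or below 0.737 CPM, and that of 5 stromal markers at or below 0.535 CPM. The summed level of 6 myeloid markers ran from 26.1 to 27.7 CPM in SCR1 and from 30.1 to 35.9 CPM in KO. Among the myeloid markers MPO and ITGAM rose (log2 fold changes 1.08 and 0.74, adjusted p = 0.000894 and 0.000162) while CSF1R, the highest of those tested, was at -0.21 (means of 17.2 and 14.8 CPM, adjusted p = 0.124), and ELANE had no count, and their part in the results below was not tested. In bulk RNA, fewer cells of a type and less RNA per cell cannot be told apart.

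Compared per length, in TPM, MYC was by far the most abundant member. In SCR1 it averaged 399 ± 32.9 TPM (n = 3), 4.44 times MAX, its obligate partner, at 89.7 ± 4.47 TPM. MXD3 came next with 79.1 ± 6.66 TPM, and its SCR1 range of 71.4 to 83.3 TPM lay below that of MAX, 84.5 to 92.4 TPM, by a margin narrower than either range. These gene sums include transcripts with a retained intron, 21.9 ± 0.771 TPM in MXD3 and 7.62 ± 5.85 TPM in MAX. MLX followed at 35.7 ± 3.52 TPM and MXI1 at 26.4 ± 4.78 TPM, with no overlap of their SCR1 values. MXD4 (16.4 ± 1.70 TPM) and MNT (14.9 ± 1.35 TPM) could not be ordered, since their ranges overlapped. MGA stood at 9.59 ± 0.481 TPM and MXD1, the lowest expressed member, at 4.15 ± 0.203 TPM, and both were separate from their neighbours. MYCN, the MYC paralog of neural tissue, had 0 counts in all 9 libraries, which allows a level of up to 0.102 CPM in the deepest library and 0.199 CPM in the shallowest. These floors of 3 counts cover counting error only.

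**Figure D1:**
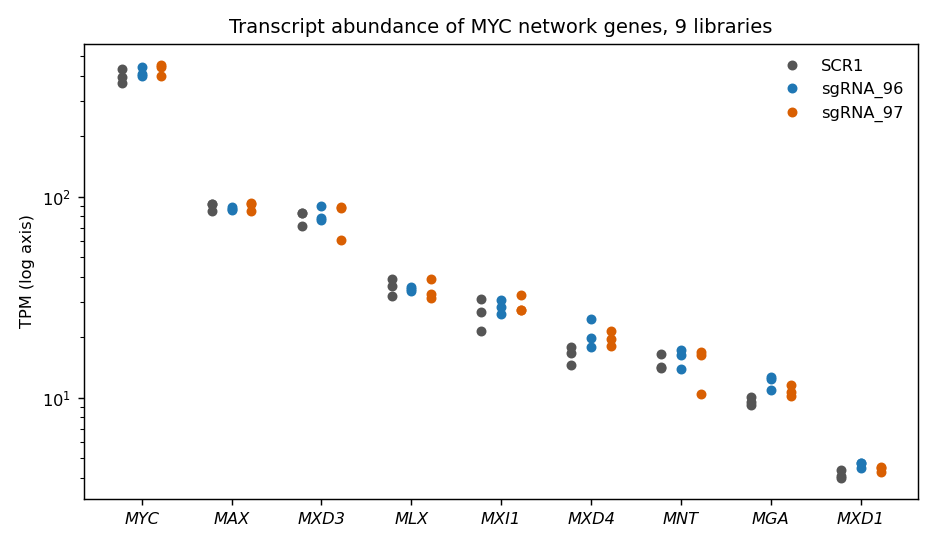
TPM (log axis) of the 9 expressed network genes, ordered by their SCR1 mean, with a point for each of 3 libraries per guide (grey SCR1, blue sgRNA_96, orange sgRNA_97). MYC lies between 368 and 454 TPM in every library and no other member exceeds 93.1 TPM.

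MYC (ENSG00000136997.22, chromosome 8, 127735434 to 127742951, plus strand, hg38) was not called in KO. Its level was 554, 575 and 633 CPM in SCR1 replicates 1, 3 and 4. It was 616, 669 and 588 CPM with sgRNA_96 and 591, 664 and 668 CPM with sgRNA_97. Of the 6 KO libraries 3 stood above the highest SCR1 library and none below the lowest, so the groups overlapped. The log2 fold change was 0.11 (SE 0.05, 95% interval -0.01 to 0.22), which in linear terms runs from 0.995-fold to 1.17-fold, and the edgeR adjusted p was 0.178. With MYC alone, exact permutation of the libraries (two-sided, difference in mean log2 CPM, 84 arrangements) gave p = 0.190, and 0.0238 was the smallest p within reach. A fall of MYC mRNA below 0.995-fold lay outside the 95% interval of this fit only. The log2 fold change was 0.06 without SCR1 replicate 1 (adjusted p = 0.566) and 0.08 with the length offset (adjusted p = 0.447).

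MAX (ENSG00000125952.21), the partner shared by MYC and its antagonists, measured 111.7, 116.0 and 118.5 CPM in SCR1, 124.5, 119.8 and 112.4 CPM with sgRNA_96 and 118.8, 124.2 and 118.7 CPM with sgRNA_97. The SCR1 and sgRNA_96 values overlapped, whereas the lowest sgRNA_97 library lay just above the highest SCR1 library, at 118.5 CPM. Its log2 fold change in KO was 0.05 (95% interval -0.04 to 0.15, adjusted p = 0.442), and the sign turned to -0.02 when lengths were taken into account. MLX (ENSG00000108788.12), the partner of MondoA, was the only member with a negative value, -0.04 (95% interval -0.17 to 0.09, adjusted p = 0.657). MLX lay between 48.7 and 54.6 CPM in SCR1 and between 45.4 and 53.8 CPM in KO.

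Among the antagonists, MXI1 alone was called. MXI1 (ENSG00000119950.21, chromosome 10, 110207605 to 110287365, plus strand) encodes the MAX partner also named MXD2. It was measured at 32.9, 36.5 and 36.7 CPM in SCR1. With sgRNA_96 it reached 38.0, 43.1 and 42.2 CPM, and with sgRNA_97 47.0, 43.7 and 40.1 CPM. All 6 KO libraries were above all 3 SCR1 libraries, the only member for which the groups did not overlap on this scale, as was the case for 20.3% of all genes tested and, with KO above SCR1, for 10.1%. From 35.4 ± 2.18 CPM (n = 3) it rose to 42.4 ± 3.11 CPM (n = 6), a log2 fold change of 0.26 (SE 0.07, 95% interval 0.12 to 0.41) or 1.20-fold, with an edgeR adjusted p of 0.0131.

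The rise of MXI1 depended on how transcript length entered the value. On the TPM scale MXI1 was 21.6, 31.1 and 26.6 in SCR1 and 26.0 to 32.3 in KO, so the groups overlapped. With the average effective length of each gene as an offset its log2 fold change was 0.12 (adjusted p = 0.496), and limma on log2(TPM + 1) gave 0.13 (adjusted p = 0.509). Weighted by TPM, the annotated length of MXI1 transcripts averaged 1912 ± 196 bases in SCR1 and 2084 ± 144 bases in KO, with ranges that overlapped (1711 to 2103 and 1882 to 2279 bases). Without SCR1 replicate 1, the deepest library, the call was lost as well (0.21, adjusted p = 0.108).

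MXD4 (ENSG00000123933.17, chromosome 4, 2247432 to 2262109, minus strand), an MXD protein of differentiating cells, had nearly the same size of difference and missed the threshold. Its values were 43.1, 46.7 and 41.5 CPM in SCR1, 57.9, 52.8 and 43.1 CPM with sgRNA_96 and 48.9, 49.0 and 55.9 CPM with sgRNA_97. Only sgRNA_96 replicate 4 lay within the SCR1 range, and the other 5 KO libraries lay above it. The log2 fold change was 0.23 (SE 0.08, 95% interval 0.06 to 0.40) at an edgeR adjusted p of 0.0505. It passed with DESeq2 (adjusted p = 0.0392) and without sgRNA_96 replicate 4 (0.28, adjusted p = 0.0113). It also passed with no filter (adjusted p = 0.0117) and with a mean CPM of at least 1 (adjusted p = 0.0455). It did not pass with the length offset (0.30, adjusted p = 0.0848) or on log2(TPM + 1) (0.29, limma adjusted p = 0.117). Nor did it without SCR1 replicate 1 (0.22, adjusted p = 0.172) or 4 (0.19, adjusted p = 0.207). In TPM its groups overlapped.

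**Figure D2:**
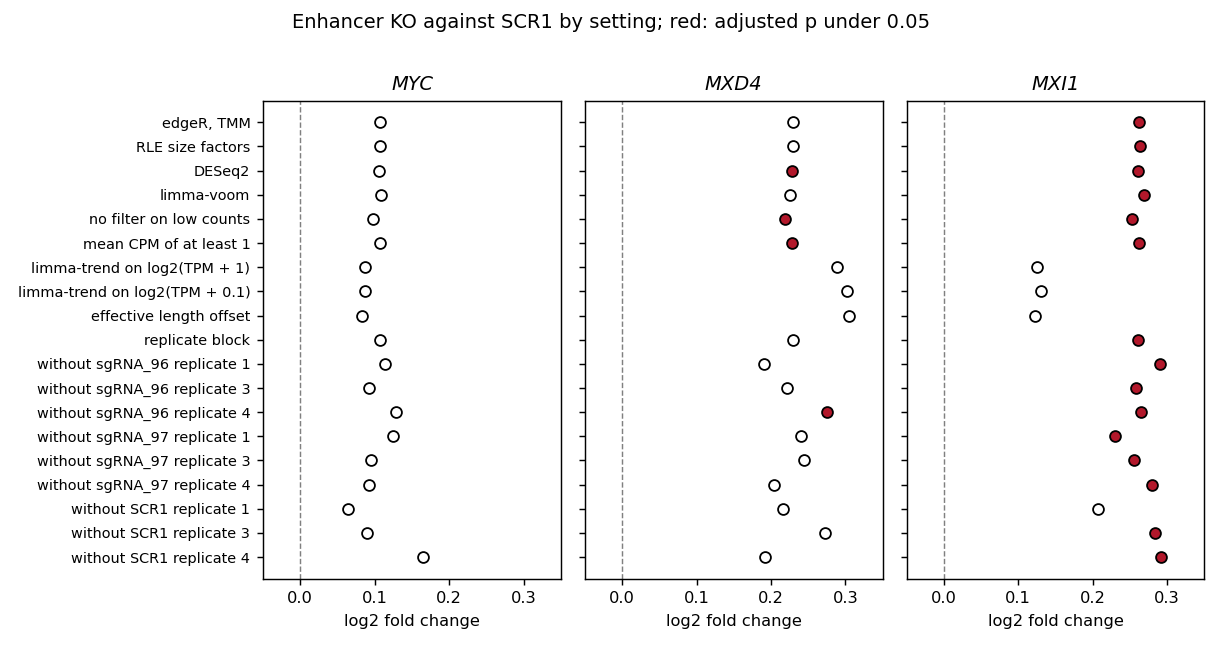
Log2 fold change of MYC, MXD4 and MXI1 in MEF2C-enhancer KO against SCR1 in each setting (rows), with red points for an adjusted p under 0.05. MXI1 drops from 0.26 to between 0.12 and 0.13 in the 3 settings that use transcript length, and MYC has no red point.

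MXD3, MXD1 and MNT were not called. MXD3 (ENSG00000213347.11), the MXD member known for its expression in cycling cells, was the most variable: 67.4, 69.0 and 72.5 CPM in SCR1, 68.8, 86.1 and 68.7 CPM with sgRNA_96, and 58.1, 88.6 and 76.7 CPM with sgRNA_97. The KO values thus lay on both sides of the SCR1 range, and its log2 fold change of 0.10 had a 95% interval from -0.11 to 0.31 (adjusted p = 0.509). MXD1 (ENSG00000059728.11), the founding MXD gene, held 16.9 to 18.0 CPM in SCR1 and 17.6 to 19.9 CPM in KO (0.10, 95% interval -0.05 to 0.25, adjusted p = 0.359). MNT (ENSG00000070444.15), the broadly expressed antagonist, held 34.7 to 38.5 CPM in SCR1 and 33.6 to 43.5 CPM in KO (0.10, 95% interval -0.06 to 0.25, adjusted p = 0.384).

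MGA (ENSG00000174197.19, chromosome 15, 41621134 to 41773081, plus strand), the MAX partner of the Polycomb complex PRC1.6, was measured at 64.1, 65.2 and 60.8 CPM in SCR1, 70.3, 66.2 and 80.0 CPM with sgRNA_96 and 73.9, 62.8 and 67.2 CPM with sgRNA_97. Its log2 fold change was 0.14 (95% interval 0.00 to 0.29, adjusted p = 0.136). In TPM the order of the libraries changed: MGA ran from 9.17 to 10.1 TPM in SCR1 and from 10.3 to 12.8 TPM in KO, with no overlap, as for 15.3% of all genes tested on that scale and, with KO above SCR1, for 7.63%. With the length offset MGA was called (0.25, adjusted p = 0.0432). On log2(TPM + 1) it was not (0.23, limma adjusted p = 0.138).

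**Figure D3:**
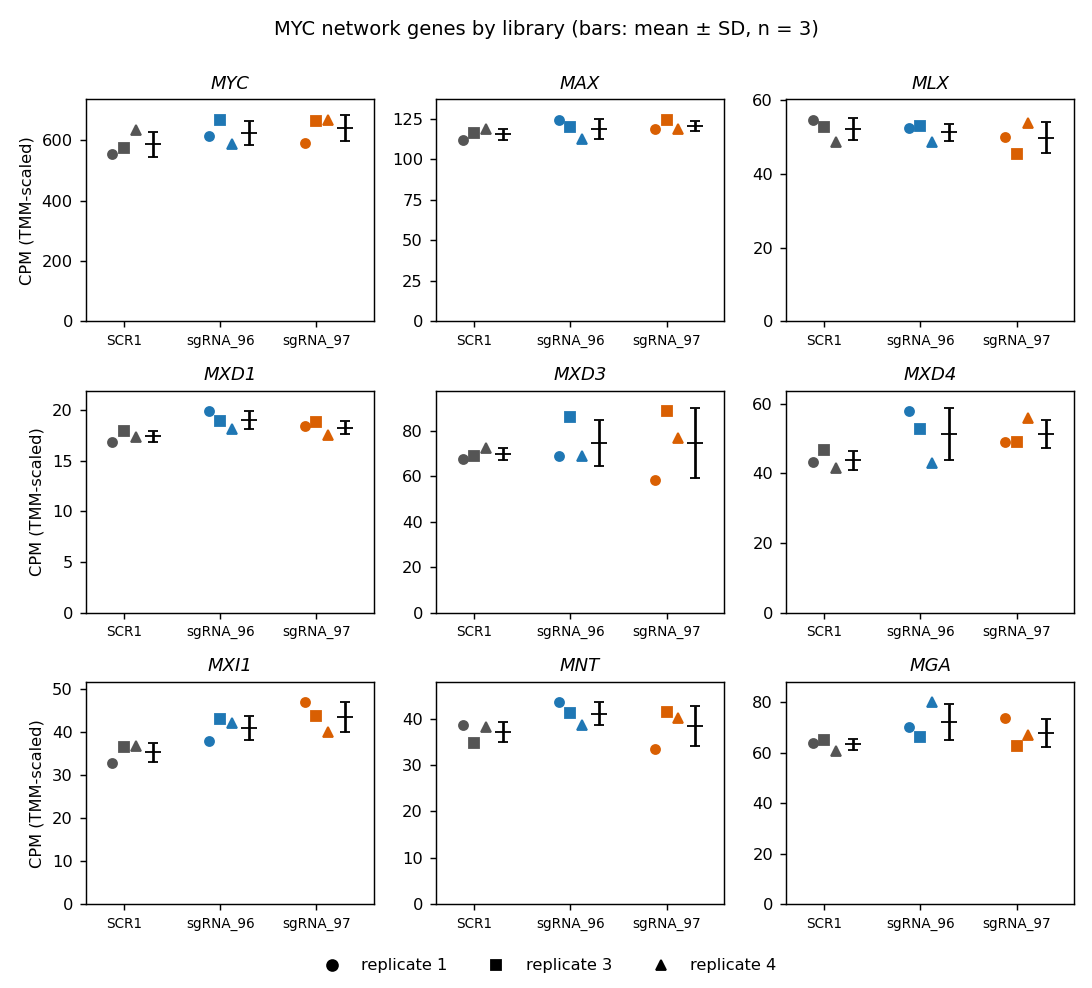
CPM of the 9 expressed network genes in each library (symbols, replicates 1, 3 and 4), with the mean ± SD of each guide in black and all axes from 0. The 6 KO points of MXI1 (38.0 to 47.0 CPM) lie above its SCR1 points (32.9 to 36.7 CPM), while those of MYC (588 to 669 CPM) overlap SCR1 (554 to 633 CPM).

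Of the 9 members tested 1 was called, or 11.1%, against a background of 20.7% of all genes, a share no higher than that of genes at large. In the higher direction 10.1% of all genes were called. Of the 9 log2 fold changes 8 were positive, with a median of 0.10 against 0.003 over all genes, and 3 (MXI1, MXD4 and MGA) had an unadjusted p under 0.05.

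**Figure D4:**
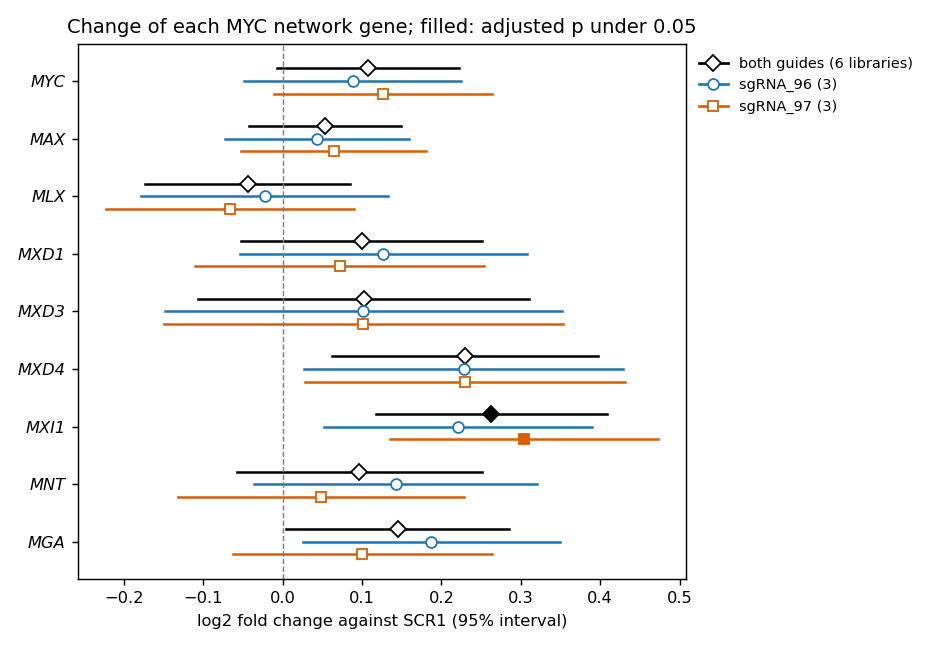
Log2 fold change against SCR1 with its 95% interval for each tested member, for both guides together (black, 6 libraries) and for each guide (blue and orange, 3 libraries each). Filled symbols mark an adjusted p under 0.05, which only MXI1 has, at 0.26 for both guides and 0.30 for sgRNA_97.

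Each guide was also compared with SCR1 in a fit with 3 groups. Both comparisons share the SCR1 libraries. With sgRNA_97, 1 member was called, against 15.1% of all genes (7.35% higher and 7.76% lower). It was MXI1, at 0.30 (95% interval 0.13 to 0.47, adjusted p = 0.0188). MXD4 was at 0.23 (adjusted p = 0.115) and MYC at 0.13 (adjusted p = 0.205). With sgRNA_96, 0 of 9 members were called by edgeR, by DESeq2 or by limma-voom, against 11.2% of all genes (5.78% higher and 5.41% lower), and 3 had an unadjusted p under 0.05. There MXI1 was at 0.22 (adjusted p = 0.0854), MXD4 at 0.23 (adjusted p = 0.135), MGA at 0.19 (adjusted p = 0.128) and MYC at 0.09 (adjusted p = 0.420). Tested directly, sgRNA_97 and sgRNA_96 differed in 0 of 9 members by edgeR, DESeq2 and limma-voom, 0 had an unadjusted p under 0.05, and 0.0208% of all genes were called. The call of MXI1 with a single guide was therefore not shown to be a difference between guides, and the MXI1 interval for that difference ran from -0.09 to 0.25 in log2.

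A call for MXI1 and none for MYC does not show that their changes differed, so each antagonist was set against MYC within each library. This measure was added after the data were seen, and 5 ratios were tested. The log2 ratio of MXI1 to MYC in CPM was higher in KO than in SCR1 by 0.15, with 4 of 6 KO libraries above all SCR1 libraries (exact two-sided permutation p = 0.0952, unadjusted). For MXD4 the ratio differed by 0.12 (exact permutation p = 0.310), and for MXD1, MXD3 and MNT by -0.01, -0.02 and -0.01 (exact permutation p from 0.881 to 1.00). In TPM the ratio of MXI1 to MYC differed by 0.04 (exact permutation p = 0.762) and that of MXD4 by 0.22 (exact permutation p = 0.286). No antagonist passed 0.05 relative to MYC on either scale.

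The balance of the transcripts can also be read from sums of TPM. MXD1, MXD3, MXD4, MXI1 and MNT together held 129, 151 and 143 TPM in SCR1 replicates 1, 3 and 4 and 127 to 158 TPM in KO. Per MYC transcript this was 0.329 to 0.384 in SCR1 and 0.318 to 0.375 in KO, ranges that overlapped almost fully. MXD3 made up 56.1 ± 1.98% of that sum in SCR1 and 53.7 ± 3.75% in KO, and MXI1 18.6 ± 1.91% and 19.5 ± 3.32%. MAX per MYC transcript was 0.213 to 0.250 in SCR1 and 0.196 to 0.218 in KO. Transcript sums say nothing of protein, and protein was not measured in these files.

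The transcripts of the members were looked at for a change hidden in the gene sums. Of the transcripts with at least 10% of their gene in any group, 29 were considered, 28 could be tested and 0 were called by edgeR across 54988 transcripts, of which 0.633% were called. With an unadjusted p under 0.05 there were 2, MXD4-201 and MXI1-230. MAX has a form of 160 residues and a form of 151 residues that differ by a short stretch before the bHLHZ domain. The 160-residue form took 42.1 ± 7.46% of MAX TPM in SCR1 and 36.6 ± 3.90% in KO, and the 151-residue form 36.7 ± 7.32% and 46.1 ± 4.79%, with overlapping ranges. MYC transcripts coding for 439 residues took 47.7 ± 1.57% and 50.5 ± 2.12%, and the one coding for 453 residues, from an upstream start, 35.3 ± 1.88% and 34.0 ± 1.93%. In MXD3 the transcripts with a retained intron took 26.6 to 29.5% in SCR1 and 29.7 to 38.0% in KO, with no overlap. That share was not tested, and how many genes at large show such a separation was not computed. The largest of these transcripts, MXD3-206, was not called (edgeR adjusted p = 0.924). In MXI1 the 192-residue class, spread by Salmon over 10 detected transcripts, took 67.0 ± 7.77% and 67.5 ± 8.33%. Within that class, MXI1-230 had no count in any SCR1 library and in 2 of the 6 KO libraries, so which MXI1 transcript received the reads varied between libraries of the same group.

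Several members share bases with another gene, and whether the counting used strand is not stated. MXD3 overlaps RAB24 on the same strand by 2284 bases and PRELID1 on the opposite strand by 3151 bases. RAB24 was higher in KO (0.37, adjusted p = 0.0422) and PRELID1 lower (-0.25, adjusted p = 0.00451). These overlaps were taken over whole genes, introns included. Whether the value of MXD3 rests on how Salmon divided the reads was not tested. MXD1 overlaps SNRNP27 on the same strand by 7888 bases, and MAX and MLX overlap FNTB and PSMC3IP on the opposite strand. MXI1, MXD4, MNT and MGA overlapped only gene models with a mean of at most 0.111 counts.

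The remaining genes of the network family were MYCL, MLXIP and MLXIPL. MLXIP, which encodes MondoA, the glucose-sensing partner of MLX, measured 162 to 164 CPM in the SCR1 libraries and 213 to 234 CPM in the KO libraries, with no overlap. With KO above SCR1, this was the case for 10.1% of all genes tested, and 10.1% were called higher. MLXIP rose by 0.47 in log2 (SE 0.04, edgeR adjusted p = 1.95e-06), by 0.48 with sgRNA_96 and by 0.46 with sgRNA_97. MYCL was near the detection limit at 0.956 ± 0.430 and 0.666 ± 0.421 CPM (adjusted p = 0.501), and MLXIPL, the carbohydrate-response factor of liver, did not pass the filter.

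The list of direct targets of MondoA and MLX held only 2 genes, and both rose, against 10.1% of all genes called higher. As the list was chosen with earlier results of these data known, that share is no test of the list. TXNIP, an arrestin-family inhibitor of glucose uptake, measured 54.9, 65.8 and 64.7 CPM in SCR1, 106, 151 and 114 CPM with sgRNA_96 and 141, 160 and 147 CPM with sgRNA_97. ARRDC4, a paralog of TXNIP with a like role, measured 5.30, 7.13 and 6.81 CPM in SCR1 and 9.39 to 13.3 CPM in KO. Neither gene had overlapping groups, as was the case, with KO above SCR1, for 10.1% of all genes tested. The log2 fold changes were 1.15 for TXNIP (adjusted p = 5.23e-06) and 0.83 for ARRDC4 (adjusted p = 0.000435). Over 18 other settings the value of TXNIP stayed between 1.06 and 1.21 and that of ARRDC4 between 0.61 and 0.91, with adjusted p up to 0.0117.

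Known MondoA sites are paired E-boxes, and the promoters of these genes are shown for that reason. The paired motif, 2 copies of CACGNG with 5 bases of any kind between them, was searched on both strands, and it occurs in 20 of the 35116 windows (0.057%), TXNIP among them. Capitals mark the motif in TXNIP and the single E-box in ARRDC4.
TXNIP, chr1:145996644-145996673, minus strand: gatgtgCACGAGGGCAGCACGAGcctccgg
ARRDC4, chr15:97960481-97960510, plus strand: aaacggcctgtgCACGTGcacgccggagcc
The matches began 88 bases before the start of TXNIP and 210 bases before that of ARRDC4.

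Most genes of a list that MYC is known to activate were lower in KO, where MYC mRNA was not called. Of 40 such genes 39 were tested, 28 were lower and 0 higher, or 71.8% called against 10.6% of all genes called lower. Their median log2 fold change was -0.19, against 0.003 over all genes. Examples are MCM4, a subunit of the replicative helicase (525 ± 7.73 to 411 ± 14.3 CPM, -0.35, adjusted p = 1.52e-05), and ODC1, the first enzyme of polyamine synthesis (361 ± 6.68 to 284 ± 11.6 CPM, -0.35, adjusted p = 3.49e-05). LDHA, a glycolytic enzyme, was at -0.33 (adjusted p = 0.000101) and CDK4, a G1 kinase, at -0.29 (adjusted p = 0.000133). With sgRNA_96 18 of the 39 were lower (5.41% of all genes) and with sgRNA_97 23 (7.76% of all genes), and 0 were higher with either. On log2(TPM + 1) these counts were 8 and 12. For sgRNA_96 the count was 12 without SCR1 replicate 1 or sgRNA_96 replicate 3, 13 without SCR1 replicate 4, 14 without sgRNA_96 replicate 4, and 12 with the length offset. For sgRNA_97 it was 13 without SCR1 replicate 1, 15 without SCR1 replicate 4 or sgRNA_97 replicate 3, and 15 with the length offset. For both guides together, leaving out each library in turn left 17 to 29 lower and 0 higher, the fewest without SCR1 replicate 1, and on log2(TPM + 1) 18 were lower. All-gene counts fell too under these settings, to 1503 and 1240.

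Proliferation markers moved with the same libraries. Of 14 such markers 11 were lower and 0 higher, against 10.6% of all genes lower, with a median of -0.26, and their summed level ran from 4086 to 4228 CPM in SCR1 and from 3531 to 3713 CPM in KO, with no overlap. MCM2 (-0.41, adjusted p = 1.12e-05), RRM2 (-0.39, adjusted p = 3.49e-05), PCNA (-0.32, adjusted p = 4.82e-05) and MCM5 (-0.38, adjusted p = 0.000101) had the smallest adjusted p. The part of proliferation in the values of the MYC-activated genes was not tested.

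Genes that MYC is known to repress went in both directions. Of 10 tested, 2 were higher and 1 lower, against 10.1% and 10.6% of all genes, and their median was -0.09. These counts are too near the background to be a result about the list. BTG2, an antiproliferative gene, rose by 0.47 (adjusted p = 1.14e-05) and CDKN1B, the CDK inhibitor p27, by 0.16 (adjusted p = 0.0269). CDKN2C, another CDK inhibitor, fell by 0.26 (adjusted p = 0.00489), and CDKN1A, which encodes p21, was at 0.01 (adjusted p = 0.928).

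Partners of the network proteins were examined by complex. Of 14 MYC coactivators 5 were lower and 0 higher, against 10.6% and 10.1% of all genes: RUVBL1, an ATPase of the TIP60 complex (-0.22, adjusted p = 0.00202), WDR5, a scaffold that anchors MYC to chromatin (-0.22, adjusted p = 0.00848), KAT5, the TIP60 acetyltransferase (-0.31, adjusted p = 0.0112), ACTL6A (-0.15, adjusted p = 0.0217) and HCFC1. Of 18 genes of the SIN3 corepressor, through which the MXD proteins and MNT act, 2 were higher and 4 lower, against 10.1% and 10.6% of all genes, so the count of higher genes was at the background. SIN3B, which encodes a scaffold of that complex, rose by 0.25 (adjusted p = 0.00687), whereas RBBP7 (-0.18, adjusted p = 0.0107), BRMS1 (-0.30, adjusted p = 0.0125) and SAP30 (-0.29, adjusted p = 0.0161) fell. Of 12 genes of the MGA-containing PRC1.6 complex 2 were lower and 0 higher, against 10.6% and 10.1% of all genes. These were TFDP1 (-0.22, adjusted p = 0.000877) and WDR5, which is also among the coactivators above. Such counts are too small to be a result about the complex.

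Among genes that act on the stability of MYC protein, FBXW7 changed most. Of 15 tested, 1 was higher and 4 lower, against 10.1% and 10.6% of all genes. FBXW7, the F-box protein that hands phosphorylated MYC to the ubiquitin ligase SCF, rose from 68.3 ± 4.51 CPM in SCR1 to 117 ± 9.31 CPM in KO. The SCR1 libraries read 66.9, 73.3 and 64.6 CPM, the sgRNA_96 libraries 101, 123 and 117 CPM and the sgRNA_97 libraries 121, 128 and 115 CPM, with no overlap. With KO above SCR1, this was the case for 10.1% of all genes tested. The log2 fold change of FBXW7 was 0.78 (SE 0.07, adjusted p = 1.49e-06), and it stayed between 0.75 and 0.83 in 18 other settings. Among the lower genes were AURKA, a kinase known to stabilize MYC proteins (-0.17, adjusted p = 0.0308), CIP2A, an inhibitor of the phosphatase that destabilizes MYC (-0.18, adjusted p = 0.0357), and SKP2. MYC protein was not measured in these files.

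**Figure D5:**
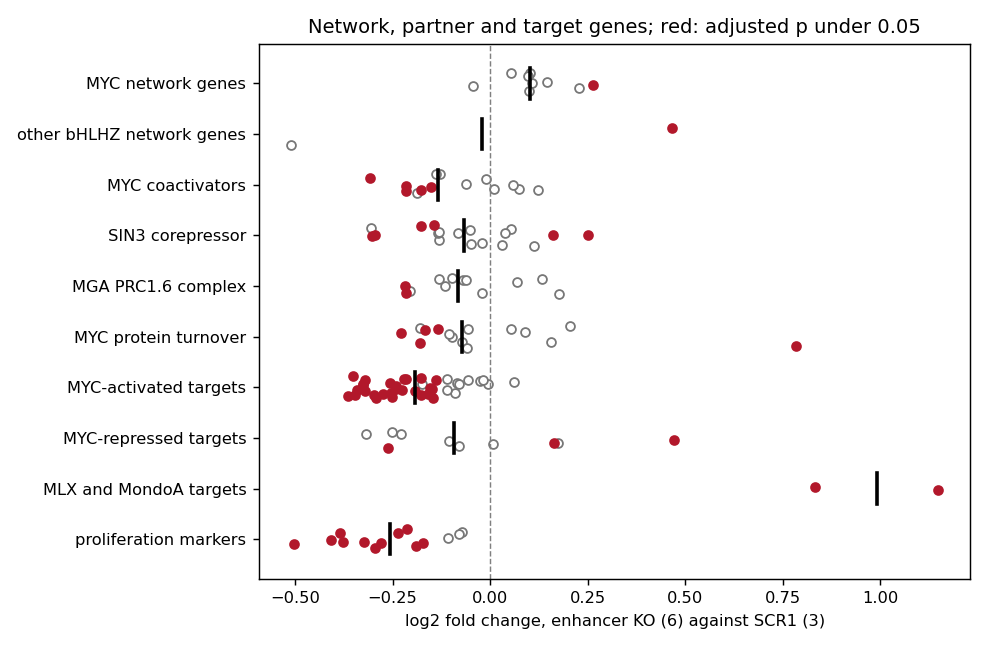
Log2 fold change in MEF2C-enhancer KO (6 libraries) against SCR1 (3 libraries) for each tested gene of the network and of 9 related lists, with red points for an adjusted p under 0.05 and a black bar at each list's median. The network genes have a median of 0.10 with 1 red point, the MYC-activated targets a median of -0.19 with 28 red points, all below 0.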

How the data were processed

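RNA-seq libraries were prepared by the authors with the TruSeq mRNA kit, trimmed with TrimGalore, aligned with STAR to hg38 and quantified with Salmon 1.10.1 through nf-core/rnaseq. The authors deposited estimated counts per transcript, without normalization, and TPM, which Salmon derives from these counts and effective lengths. The annotation release was not given in the sources used here. All 252835 transcript identifiers matched GENCODE 44. Totals ranged from 15212462 to 29777361 counts per library.

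For each gene the estimated counts of its transcripts were added up and rounded. Genes were kept by filterByExpr (minimum count 10), scaled by TMM and tested in edgeR 4.0.16 (R 4.3.3) by quasi-likelihood, two-sided, with Benjamini-Hochberg adjustment over 14436 genes and a threshold of 0.05. Unless another tool is named, every adjusted p comes from this test. The 6 KO libraries formed 1 group against 3 SCR1 libraries, and guides were compared in a fit with 3 groups. The study's methods name DESeq2, run here as an alternative (1.42.0), beside limma 3.58.1 on log2(TPM + 1) and log2(TPM + 0.1), limma-voom, other scalings and filters, an effective length offset, a replicate block and each library left out. For MYC an exact permutation test was added (scipy 1.17.1). No libraries of a group agreed within sampling noise, the chi-square over its degrees of freedom being 4.31 to 8.59. Members, gene lists and rules were chosen with earlier results of these data known. All members are named, and from every other list at most 4 genes by smallest adjusted p. HCFC1, SKP2 and genes overlapping a member are named outside that rule, to complete a count or an overlap. Promoters are from RefSeq, GRCh38.p14. Values of 2 listed genes are not reported here.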

Additional observations from a re-analysis of the deposited data

How the results depend on the processing

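Of 162 member log2 fold changes recomputed in KO under 18 settings, 150 kept their direction and their side of the threshold, 4 lost the call, 5 gained it and 3 turned sign. Those that turned were MAX, at -0.0167 with limma on log2(TPM + 1), -0.0168 on log2(TPM + 0.1) and -0.0216 with the length offset. MYC was not called in any of the 18, with values from 0.06 to 0.16. The count of members called in KO was 2 with DESeq2, with no filter and with a mean CPM of at least 1 (MXD4 and MXI1), 0 on both TPM scales, and 0 to 2 without each library in turn: 0 without SCR1 replicate 1 and 2 without sgRNA_96 replicate 4. For sgRNA_96 it was 1 with the length offset (MGA) and 0 to 1 without a library (MXI1 without sgRNA_96 replicate 1, MXD4 without sgRNA_96 replicate 4). For sgRNA_97 it was 2 with no filter, 0 on both TPM scales and with the length offset, and 0 to 1 without a library (0 without SCR1 replicate 1, sgRNA_97 replicate 1 or sgRNA_97 replicate 3). All genes called in KO numbered 1240 and 1246 on the TPM scales, 1524 with the length offset, and 1503 to 3547 without a library (1503 without SCR1 replicate 1, 1813 without SCR1 replicate 4). The cause of these changes was not tested.

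With the replicate number as a block, 1 member was called in KO (MXI1), 0 with sgRNA_96 and 1 with sgRNA_97, so the block changed no call of a member. The numbers were not shown to pair the libraries: deviations from the group means correlated from -0.187 to 0.292 in 9 pairs with the same number and from -0.240 to 0.308 in 18 pairs with different numbers. Of 12 values looked at for a KO library far from the others, 0 stood out. The half-width of the 95% interval in KO ran from 0.10 in MAX to 0.21 in MXD3 on the log2 scale, which is what this depth and number of libraries resolved.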
